A study of Rubus idaeus with 6 samples.

Results

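Gene models of plant defence and stress signalling on linkage group (LG) 4 were examined in raspberry axillary buds. They are the orthologues of the transcription factor genes WRKY75 (Ro04_G07106), WRKY57 (Ro04_G15164) and WRKY72 (Ro04_G00111), and a gene for an immune receptor of the CC-NBS-LRR type (Ro04_G07222). They make up 4 of the 19951 gene models in the table, and all 4 passed the filter on low values. They were chosen on earlier results for their difference between the cultivars, so that difference is given below as a description, with no test.

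The RNA came from axillary buds taken 5 to 10 nodes below the shoot apex of red raspberry (Rubus idaeus) on November 5, in the southern spring and early summer. ‘Heritage’ is annual-fruiting (AF) and flowers on first-year canes, whereas ‘Wakefield’ is biennial-fruiting (BF) and flowers after a winter. Each cultivar gave 3 biological replicates, called here by their library numbers, 59 to 61 for ‘Wakefield’ and 62 to 64 for ‘Heritage’. Both were untreated plants grown together in 1 field, and since each fruiting habit is represented by 1 cultivar, habit and cultivar cannot be told apart. In whole buds, fewer cells of a type and less RNA per cell cannot be told apart either.

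WRKY proteins are plant transcription factors that bind W-box elements in the promoters of defence, stress and senescence genes, and many of them are themselves induced by pathogens or hormones. In Arabidopsis, WRKY75 is induced by phosphate starvation and promotes leaf senescence, WRKY57 acts in drought tolerance and restrains jasmonate-induced leaf senescence, and WRKY72 contributes to basal immunity. NBS-LRR proteins are intracellular immune receptors that detect pathogen effectors directly or through a guarded host protein, and the CC class carries a coiled-coil domain at its start. Gene names are those of the Arabidopsis orthologues listed by the study for the gene models of 2 intervals on LG3 and LG4. The 1998 lines used here are fewer than the gene models that the paper counts in these intervals. Gene models outside these lines, in the intervals or elsewhere in the genome, carry no name here.

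Reads counted on gene models, recovered from the deposited values, summed to 7345603 to 14977596 per library, the lowest sum being that of ‘Wakefield’ library 60. Values are normalized counts, that is, reads per gene model divided by a size factor for the library, and they are not corrected for gene length. Of 17898 gene models tested, 2867 were higher in ‘Heritage’ (16.0%) and 3127 were lower (17.5%) at an adjusted p under 0.05 (limma, Benjamini-Hochberg), and the median log2 difference was 0.01. The dormancy-associated bud gene DRM1 was abundant in every library (5252 to 10678 normalized counts). The summed counts of 6 leaf photosynthesis genes were 10972 to 15613 in ‘Wakefield’ and 7802 to 8507 in ‘Heritage’, and limma called 4 of the 6 lower in ‘Heritage’ (3 without library 59), whereas edgeR and DESeq2 called all 6. The floral organ genes AG and SEP3 summed to 305, 159 and 43.8 in ‘Wakefield’ libraries 59, 60 and 61 and to 33.5, 47.2 and 48.6 in ‘Heritage’, with SEP3 at 221 in library 59 and at 6.36 to 29.5 in the other 5. Limma and edgeR called neither floral gene and DESeq2 called both lower in ‘Heritage’. None of these markers was at 0 in any library, and the part of leaf or floral tissue in the results below was not tested. Because library 59 stood apart in SEP3 and in several genes below, results are also given without it.

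WRKY75 and WRKY72 had the largest differences of the 4, and their order depended on the setting, with WRKY72 at 3.39 and WRKY75 at 3.29 on the log2 scale when 0.1 rather than 1 was added to each value. The WRKY75 normalized counts were 197, 70.0 and 96.5 in ‘Wakefield’ libraries 59, 60 and 61 and 1572, 824 and 967 in ‘Heritage’ libraries 62, 63 and 64. The lowest ‘Heritage’ library was 4.18 times the highest ‘Wakefield’ library, and within each cultivar 1 library (59 and 62) stood well above the other two. ‘Heritage’ averaged 1121 ± 397 and ‘Wakefield’ 121 ± 67.1 (SD, n = 3 each). Their ratio was 9.24, and the log2 difference was 3.28 (standard error 0.43). Without library 59 the log2 difference was 3.70, and over all fits that left out 1 library it was 2.96 to 3.70. The pooled reads of each cultivar gave a ratio of 8.75 with a 95% interval of 7.87 to 9.74 that covers counting error only, so the spread between libraries, not depth, set the precision.

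WRKY72 was similar in ratio but was scarcely expressed in ‘Wakefield’. It had 7.51, 1.56 and 0.743 normalized counts in ‘Wakefield’, from 8, 1 and 1 reads, and 47.1, 24.5 and 10.5 in ‘Heritage’, from 45, 27 and 11 reads. The groups did not overlap, but the lowest ‘Heritage’ library (64) was only 1.39 times the highest ‘Wakefield’ library (59), and the counting intervals of those libraries, 5.23 to 18.7 and 3.24 to 14.8, did overlap. ‘Heritage’ averaged 27.4 ± 18.5 and ‘Wakefield’ 3.27 ± 3.70 (SD, n = 3 each), and the log2 difference was 2.85 (standard error 0.75). The pooled ratio was 8.16, with a counting interval of 4.22 to 17.6. Its log2 difference depended on the pseudocount, being 1.40 when 10 rather than 1 was added to each value, and it was 3.52 without library 59.

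WRKY57 differed less but very evenly. Normalized counts were 129, 138 and 133 in ‘Wakefield’ and 234, 226 and 215 in ‘Heritage’. Libraries of 1 cultivar lay within 1.09 times of each other, and the lowest ‘Heritage’ library was 1.55 times the highest ‘Wakefield’ library. ‘Heritage’ averaged 225 ± 9.62 and ‘Wakefield’ 133 ± 4.88 (SD, n = 3 each), which gives a ratio of 1.69 and a log2 difference of 0.75 (standard error 0.09). It was 0.73 without library 59.

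The CC-NBS-LRR gene, whose product belongs to the intracellular receptors described above, was also even within each cultivar. It had 29.1, 37.3 and 37.1 normalized counts in ‘Wakefield’ and 71.1, 78.1 and 80.0 in ‘Heritage’. Every ‘Heritage’ library was at least 1.91 times the highest ‘Wakefield’ library. ‘Heritage’ averaged 76.4 ± 4.66 and ‘Wakefield’ 34.5 ± 4.68 (SD, n = 3 each), which gives a ratio of 2.21 and a log2 difference of 1.13 (standard error 0.13), or 1.02 without library 59. NBS-LRR genes form a large family of related copies, and the gene models used as reference are those of black raspberry, a different species, so reads shared with a related copy or lost to a sequence difference could change these counts. This was not tested.

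**Figure D1:**
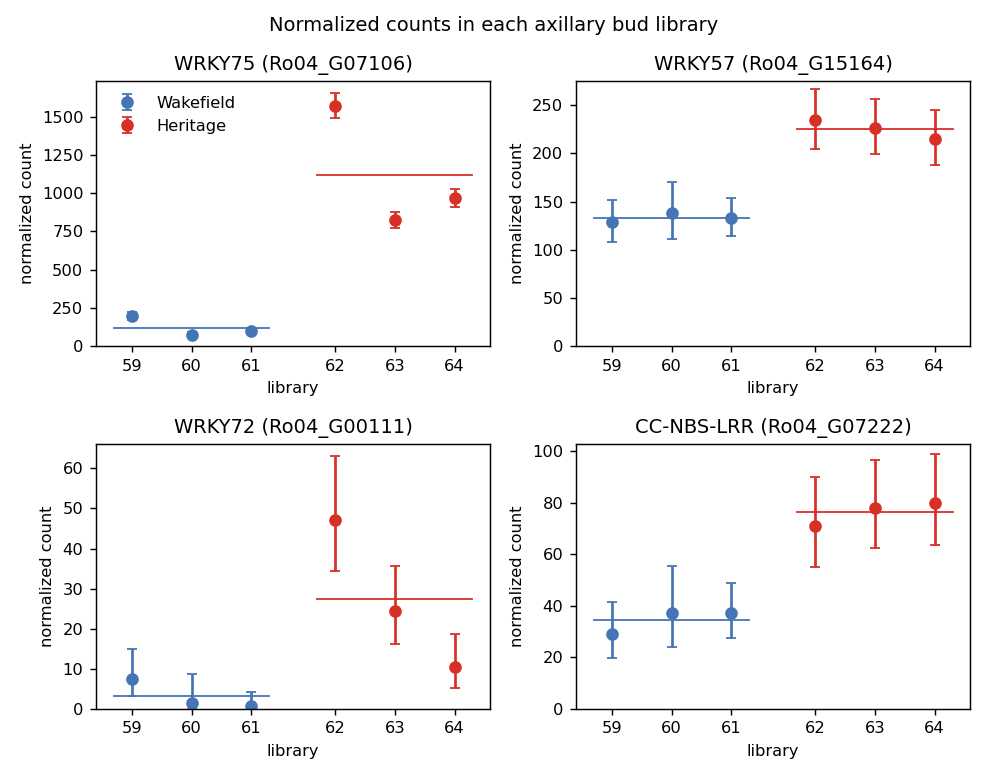
Normalized counts (vertical axis, starting at 0) of the 4 gene models in each library (horizontal axis), with ‘Wakefield’ in blue and ‘Heritage’ in red. Points are libraries, bars are 95% Poisson intervals that cover counting error only, and horizontal lines are cultivar means. The genes were chosen for their difference between the cultivars. The ‘Heritage’ libraries lie above all ‘Wakefield’ libraries for each gene model, with WRKY72 closest to overlap.

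The genes were chosen for their difference between the cultivars, and whether the spread among libraries of 1 cultivar entered that choice is not known. The SD of the log2 values of WRKY75 was 0.48 in ‘Heritage’ and 0.76 in ‘Wakefield’, larger than in 92.2% and 91.8% of the gene models tested. For WRKY72 it was 1.04 and 1.19, but this gene model passed the filter through its ‘Heritage’ values alone, and at 1 to 8 reads counting error alone spreads the ‘Wakefield’ values. For WRKY57 the SDs were 0.06 and 0.05, larger than in only 15.5% and 6.97% of gene models. The CC-NBS-LRR gene had 0.09 and 0.20, beside medians over all gene models tested of 0.15 in ‘Heritage’ and 0.20 in ‘Wakefield’. For WRKY57 and the CC-NBS-LRR gene, the counting interval of each library was wider than the range of values in its cultivar. Their small SDs therefore cannot be read as a trait of these genes.

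**Figure D2:**
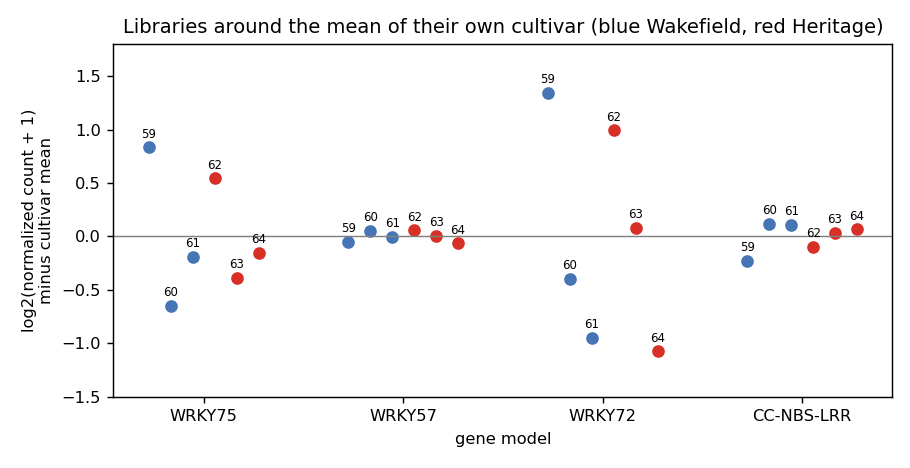
Each library's log2(normalized count + 1) minus the mean of its own cultivar (vertical axis) for the 4 gene models (horizontal axis), labelled by library number. WRKY75 and WRKY72 have library 59 highest among the ‘Wakefield’ points (0.84 and 1.34) and library 62 highest among the ‘Heritage’ points (0.54 and 0.99), while WRKY57 and the CC-NBS-LRR gene stay between -0.23 and 0.12.

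The deviations of WRKY75 and WRKY72 pointed the same way in their top libraries. Library 59 was 0.84 and 1.34 above the ‘Wakefield’ mean on the log2 scale, and library 62 was 0.54 and 0.99 above the ‘Heritage’ mean. The order of the lower libraries differed between these genes, with 64 lowest for WRKY72 and 63 lowest for WRKY75.

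The gene models with the nearest profiles among 1690 with an Arabidopsis orthologue share the cultivar difference and the pattern over the 6 libraries by construction, and are listed as a description. For WRKY75 they were GOX1 (Ro03_G33049, a photorespiratory glycolate oxidase, root mean square difference 0.25 on the log2 scale), Ro03_G13489, which has no description (0.28), and a B-box zinc finger gene (Ro04_G36228, 0.32). GOX1 had 1434, 551 and 528 normalized counts in ‘Wakefield’ and 7980, 5699 and 5014 in ‘Heritage’. GOX1 was also near WRKY72 (0.49), together with a B12D protein gene (Ro04_G07192, 0.49) and the cytochrome P450 gene CYP76C3 (Ro04_G36268, 0.50).

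The profiles nearest to WRKY57 were those of a gene for a putative membrane protein of the endoplasmic reticulum (Ro04_G36173, 0.06), GPPS (Ro03_G15317, a geranyl pyrophosphate synthase, 0.07) and Ro04_G02726, of unknown function (0.08). Those nearest to the CC-NBS-LRR gene were CBRLK1 (Ro03_G32998, a calmodulin-binding receptor-like kinase, 0.15), a Phox/Bem1p family gene (Ro04_G02738, 0.17) and ARF6 (Ro03_G33037, an auxin response factor, 0.18). ARF6 had 3547 to 3988 normalized counts in ‘Wakefield’ and 6766 to 7094 in ‘Heritage’, without overlap.

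The other 5 WRKY gene models among the 1998 lines used here lie on LG3, except WRKY3 on LG4. They are those left after the 3 WRKY gene models above were set apart on earlier results for this difference. The number of calls among them was therefore partly set by that choice. All 5 had a positive difference on the limma scale, although WRKY35 was at -0.02 with edgeR and DESeq2, and none passed the test in either direction. The median log2 value was 0.56 beside 0.01 over all gene models. With limma, 0 of 5 were called and 0 had an unadjusted p under 0.05, and edgeR and DESeq2 on the recovered reads also called 0. The background shares were 16.0% higher and 17.5% lower.

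WRKY6, a regulator of senescence and phosphate homeostasis in Arabidopsis, had 488, 174 and 137 normalized counts in ‘Wakefield’ and 732, 440 and 392 in ‘Heritage’. Libraries 59 and 62 were again the highest of their cultivars, and library 59 lay above 2 of the ‘Heritage’ libraries. Its log2 difference was 1.14 (standard error 0.52, limma adjusted p = 0.139), and without library 59 it was 1.70 (limma adjusted p = 0.0159). WRKY65 had 159, 90.2 and 69.1 against 256, 158 and 138, with the same 2 libraries highest. Its log2 difference was 0.83 (standard error 0.37, limma adjusted p = 0.136), or 1.16 without library 59 (limma adjusted p = 0.0414).

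WRKY71, which promotes shoot branching and flowering in Arabidopsis, had 116, 88.6 and 86.9 normalized counts in ‘Wakefield’ and 211, 151 and 90.5 in ‘Heritage’. ‘Heritage’ library 64 lay inside the ‘Wakefield’ range, and the log2 difference was 0.56 (standard error 0.32, limma adjusted p = 0.224). Without library 64 it was 0.88 (limma adjusted p = 0.0490). WRKY3, which acts in resistance to necrotrophic pathogens in Arabidopsis and lies 135 kb from WRKY57, had 291, 305 and 270 against 354.7, 333 and 314. These groups did not overlap, but the log2 difference was only 0.21 (standard error 0.10, limma adjusted p = 0.163).

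WRKY35 ran against the others in library 59, with 55.4 normalized counts there, 182 and 169 in ‘Wakefield’ libraries 60 and 61, and 130 to 135 in ‘Heritage’. Its log2 difference was 0.16 (standard error 0.46, limma adjusted p = 0.814). Without library 59 the direction reversed, to -0.39 (limma adjusted p = 0.0409). Leaving out library 59 therefore gave 2 of the 5 called higher and 1 called lower, where all 6 libraries gave 0. Over all gene models, the fit without library 59 called 2764 of 17497 higher and 2768 lower.

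**Figure D3:**
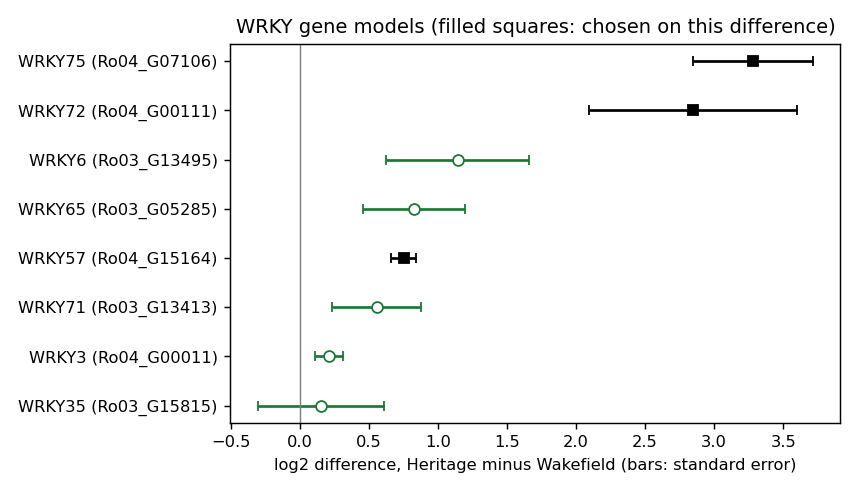
Log2 difference, ‘Heritage’ minus ‘Wakefield’ (horizontal axis, bars are standard errors), of the 8 annotated WRKY gene models (vertical axis). Filled squares are the 3 selected on this difference, from 0.75 for WRKY57 to 3.28 for WRKY75; open circles are the other 5, from 0.16 for WRKY35, which is -0.39 without library 59, to 1.14, none of which passed the test.

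Related pathways were followed in 10 lists of 67 other gene models from the same intervals, covering receptors, guarded proteins, defence hormones, phosphate supply, senescence and secreted defence. Of 63 tested, 16 were higher in ‘Heritage’ and 8 were lower, beside background shares of 16.0% and 17.5% over all gene models. Their median log2 difference was 0.09, beside 0.01 over all gene models. The same shares stand beside the counts of each list below. Because the lists were chosen with earlier results of these data known, these counts are a description and no test against those shares. Without library 59 the counts were 13 and 5. Without library 62 they were 7 and 4, without 63 they were 7 and 4, without 64 they were 9 and 5, and without 60 they were 10 and 4. Each of these fits held 5 libraries rather than 6, and the counts over all gene models were lower in them too. Of 17495 to 17525 tested, 2764 were higher and 2768 lower without library 59, and 1283 and 1991 without 62. The counts were 1087 and 1709 without 63, 1655 and 2247 without 64, and 1964 and 2115 without 60.

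Among NBS-LRR receptors, 1 of 2 others was higher. This TIR-NBS-LRR gene (Ro04_G36305), of the class with a Toll-like start domain, had 8.45, 10.9 and 2.97 normalized counts in ‘Wakefield’ and 19.9, 19.1 and 26.7 in ‘Heritage’ (log2 difference 1.57, limma adjusted p = 0.0347). The call was lost without any 1 of the ‘Heritage’ libraries, where adjusted p reached 0.0980. The second, Ro04_G00402, had 235 to 287 against 289 to 366 (log2 difference 0.41, limma adjusted p = 0.0740).

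Proteins that NBS-LRR receptors guard, and regulators of cell death, made up a list of 7. Of 6 tested, 0 were higher and 2 were lower, with a median log2 difference of 0.02. With limma 0 also had an unadjusted p under 0.05 in the higher direction, where edgeR called 0 and DESeq2, which tested all 7, called 1. The metacaspase gene MC4 was lower in ‘Heritage’, at 877 to 940 normalized counts against 1409 to 1616 (log2 difference -0.70, limma adjusted p = 0.00579), in each fit that left out 1 library. SOBER1, a suppressor of effector-triggered immunity, had 255 to 304 against 338 to 425 (log2 difference -0.48, limma adjusted p = 0.0368), a call held only without library 61. PBS1, the kinase guarded by an NBS-LRR receptor in Arabidopsis, had 583 to 731 and 720 to 776 (log2 difference 0.16, limma adjusted p = 0.372).

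A gene model of the RIN4 family (Ro04_G22236), the guarded family that CC-NBS-LRR receptors monitor in Arabidopsis, lies 28.9 kb from the CC-NBS-LRR gene. It fell below the filter and was not tested with the others. It had 1.88, 0 and 2.23 normalized counts in ‘Wakefield’ and 30.3, 9.99 and 9.52 in ‘Heritage’, 5 reads against 50 in all. The ratio was 9.83, with a counting interval of 3.94 to 31.6. With no filter on low values its limma adjusted p was 0.0229, and with DESeq2 it was 0.00514.

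Of 3 regulators of the salicylate pathway, 1 was lower and 0 were higher (limma; 0 higher at an unadjusted p under 0.05, and 0 with edgeR or DESeq2). SNI1, a repressor of salicylate-dependent defence genes in Arabidopsis, had 217, 243 and 256 normalized counts in ‘Wakefield’ and 95.2, 118 and 134 in ‘Heritage’. The groups lay far apart, with a log2 difference of -1.05 (standard error 0.16, limma adjusted p = 0.00601), which was called in each fit that left out 1 library. The salicylate receptor gene NPR3 had 1015 to 1190 and 1052 to 1165, a log2 difference of 0.01 that turned to between -0.04 and -0.01 without library 59, 60 or 62.

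Surface immune receptors numbered 13, of which 11 were tested, with 3 higher and 1 lower. The receptor-like protein gene RLP1 (Ro03_G32957) had 36.6, 27.99 and 17.1 normalized counts in ‘Wakefield’ and 177, 157 and 172 in ‘Heritage’ (log2 difference 2.65, limma adjusted p = 0.00208), in each fit that left out 1 library. A wall-associated kinase gene, WAK3 (Ro03_G17156), had 1.56 to 11.3 against 31.4 to 44.5 (log2 difference 2.80, limma adjusted p = 0.0146), a call lost without library 62 or 63. WAK2 (Ro03_G17147) went the opposite way, with 23.5 to 35.8 against 6.67 to 16.7 (log2 difference -1.30, limma adjusted p = 0.0319), and was called without library 62 but not without any other, nor with DESeq2 (adjusted p = 0.0521).

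FLS2, the flagellin receptor, had 542, 112 and 83.2 normalized counts in ‘Wakefield’ and 968, 1008 and 756 in ‘Heritage’. Library 59 was again far above the other ‘Wakefield’ libraries. The log2 difference was 2.39 (standard error 0.70, limma adjusted p = 0.0444), but adjusted p was 0.0546 with edgeR and 0.0622 with DESeq2, and of the fits that left out 1 library only that without library 59 called it, at 3.21. Its co-receptor gene BAK1 had 495 to 549 and 451 to 623, a log2 difference of 0.05 (limma adjusted p = 0.796), or -0.05 without library 62.

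Cysteine-rich receptor kinases (CRKs) are surface kinases, many of which respond to pathogens and salicylate. This list, with 13 tested, had the most calls, 6 higher and 1 lower, beside shares of 16.0% and 17.5% over all gene models. Its median log2 difference was 0.71. CRK10 (Ro03_G10538) had 101, 128 and 79.5 normalized counts in ‘Wakefield’ and 623, 461 and 457 in ‘Heritage’ (log2 difference 2.32, limma adjusted p = 0.00165). CRK31 (Ro03_G33166) had 2.82 to 5.198 against 21.9 to 37.7 (log2 difference 2.64, limma adjusted p = 0.00210), and without any 1 ‘Heritage’ library it fell below the filter. CRK15 (Ro03_G10535) had 533 to 756 against 1160 to 1609 (log2 difference 1.19, limma adjusted p = 0.00767).

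A second CRK10 orthologue, Ro03_G10533, was lower in ‘Heritage’, at 23.8 to 31.8 normalized counts against 83.9 to 147 (log2 difference -2.02, limma adjusted p = 0.00304). The calls of both CRK10 gene models and of CRK15 held in each fit that left out 1 library. These 3 belong to a row of related copies on LG3, at 42217265, 42224019 and 42253963 bp, so counts split between copies are uncertain. Without library 59 the list had 5 higher and 1 lower.

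Jasmonate synthesis and its JAZ repressors gave 0 of 6 higher and 1 lower. One of the 6 was higher at an unadjusted p under 0.05 with limma, and edgeR and DESeq2 each called 1 higher, the repressor gene JAZ3 (1455 to 2075 against 2335 to 3289 normalized counts, limma adjusted p = 0.0516), named after its values were seen. JAZ10 had 2199, 1980 and 1405 normalized counts in ‘Wakefield’ and 772, 839 and 1283 in ‘Heritage’ (log2 difference -0.96, limma adjusted p = 0.0353). The nearest libraries, 61 and 64, were close together, and the call was lost without 59, 60, 62 or 63. In the ethylene list 2 of 4 were higher and 0 lower by limma, edgeR and DESeq2, with 0 lower at an unadjusted p under 0.05. They were the response factor genes ERF12 (295 to 350 against 417 to 625, log2 difference 0.65, limma adjusted p = 0.0336), called without library 63 only, and ERF9 (876 to 904 against 1054 to 1181, log2 difference 0.33, limma adjusted p = 0.0402), called in no fit that left out 1 library.

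Phosphate supply was examined because WRKY75 and WRKY6 act in phosphate homeostasis in Arabidopsis. Of 9 gene models, 1 was higher and 2 were lower, with a median log2 difference of 0.00. An EXS family gene (Ro04_G00028), of the family of the phosphate exporter PHO1, had 129, 114 and 275 normalized counts in ‘Wakefield’ and 752, 621 and 533 in ‘Heritage’ (log2 difference 1.98, limma adjusted p = 0.0106), in each fit that left out 1 library. The purple acid phosphatase gene PAP17, a marker of phosphate starvation, had 483, 1194 and 1262 against 220, 223 and 311 (log2 difference -1.85, limma adjusted p = 0.0183), a call lost without 60, 62 or 63. Another acid phosphatase gene, Ro04_G36186, had 149 to 173 against 98.4 to 124 (log2 difference -0.60, limma adjusted p = 0.0186), lost without 62 or 64.

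Senescence and autophagy gave 3 of 4 higher and 0 lower, beside shares of 16.0% and 17.5% over all gene models. Limma, edgeR and DESeq2 gave the same counts, with 0 lower at an unadjusted p under 0.05 with limma. The count of so short a list was not tested against those shares. NAP (Ro04_G36174), a NAC transcription factor gene that promotes leaf senescence in Arabidopsis, had 200, 103 and 160 normalized counts in ‘Wakefield’ and 1280, 911 and 540 in ‘Heritage’. The groups were well separated, with a log2 difference of 2.52 (standard error 0.38, limma adjusted p = 0.00651), called in each fit that left out 1 library. NAC83 had 1085 to 1367 against 1923 to 3129 (log2 difference 0.96, limma adjusted p = 0.0204), a call lost without 60, 61 or 63. The autophagy gene ATG7 had 370 to 429 against 495 to 577 (log2 difference 0.39, limma adjusted p = 0.0424), called in no fit that left out 1 library. Library 62 was highest of all 6 for each of these 3.

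Wall and secreted defence proteins, which include peroxidases and a callose synthase, gave 0 higher and 0 lower of 5 tested with limma, none at an unadjusted p under 0.05, and 0 with edgeR and DESeq2. Their log2 differences ran from -0.51 to 0.06.

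**Figure D4:**
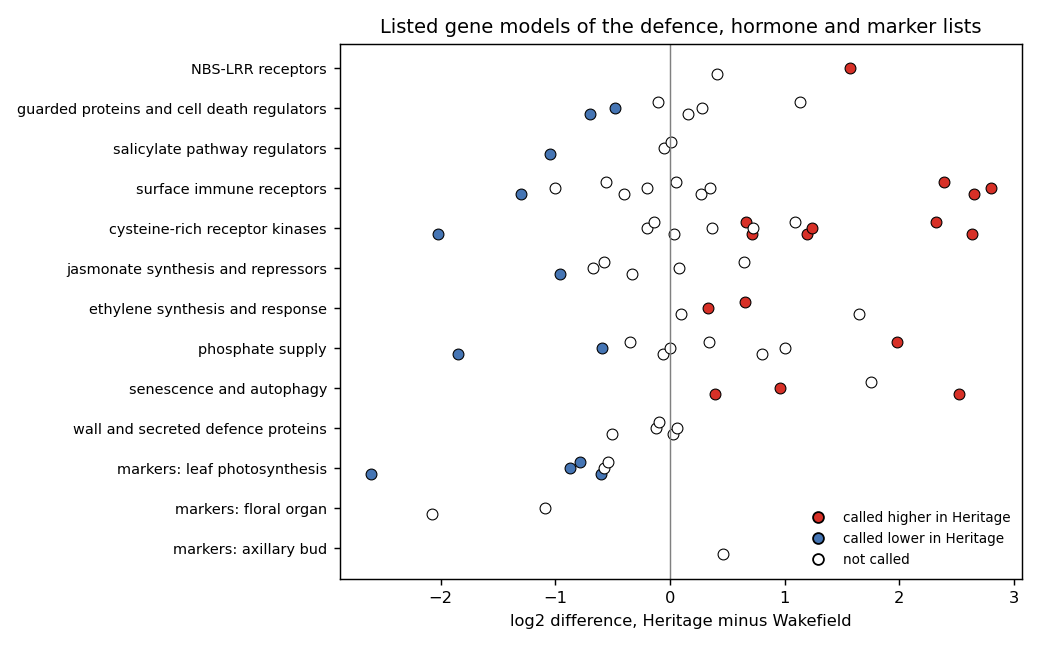
Log2 difference, ‘Heritage’ minus ‘Wakefield’ (horizontal axis), of each tested gene model in the 10 lists and 3 marker lists (vertical axis), with the CC-NBS-LRR gene itself left out. Red points were called higher in ‘Heritage’ and blue points lower at an adjusted p under 0.05, and open points were not called. Cysteine-rich receptor kinases hold 6 red and 1 blue point and leaf photosynthesis 4 blue points, beside background shares of 16.0% higher and 17.5% lower.

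The 4 genes lie on LG4 of the black raspberry assembly ORUS 4115-3 v3.0, at 2758434 bp (WRKY72), 3463856 bp (WRKY57), 6046471 bp (CC-NBS-LRR) and 6800969 bp (WRKY75). They are not neighbours, with the CC-NBS-LRR gene and WRKY75 754 kb apart. The 5 gene models on each side of each were taken by position, 40 in all, of which 33 were tested. Positions came from the 1998 lines used here, which do not hold every gene model of the intervals. Closer neighbours may therefore be missing. Of these 2 were higher and 3 lower, with a median log2 difference of 0.12, beside background shares of 16.0% and 17.5%.

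Next to WRKY75, 12.9 kb away, Ro04_G07105 was higher in ‘Heritage’. It encodes a dihydrosphingosine phosphate lyase, an enzyme of sphingolipid breakdown, and had 379, 367 and 264 normalized counts in ‘Wakefield’ and 695, 660 and 648 in ‘Heritage’. Its groups did not overlap, and the ratio of means was 1.98 (log2 standard error 0.16, limma adjusted p = 0.00772), called in each fit that left out 1 library. The other 6 tested neighbours of WRKY75 were not called with limma. One of them is SEP3, whose high value in library 59 is given above (limma adjusted p = 0.205, DESeq2 adjusted p = 0.00180). None was called lower with edgeR or at an unadjusted p under 0.05, and DESeq2 called 2 of all 10 neighbours lower.

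Around WRKY72, 1 of 10 was higher and 2 were lower. Ro04_G00114, a coiled-coil protein gene 22.3 kb away, had 1431 to 1687 against 2084 to 2301 normalized counts (log2 difference 0.53, limma adjusted p = 0.0166), lost without 62 or 63. The alpha-amylase-like gene Ro04_G00117, of starch breakdown, had 1463 to 1642 against 902 to 1067 (log2 difference -0.66, limma adjusted p = 0.00820), in each fit that left out 1 library. Ro04_G00108, a leucine-rich repeat kinase gene 19.2 kb away, had 477 to 551 against 249 to 368 (log2 difference -0.83, limma adjusted p = 0.0195), lost without 60, 62 or 63.

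Around the CC-NBS-LRR gene 1 of 9 was called, the leucine-rich repeat kinase gene Ro04_G07218, lower in ‘Heritage’ with 815 to 1061 against 491 to 625 normalized counts (log2 difference -0.67, limma adjusted p = 0.0222), a call lost without 60, 62, 63 or 64. None of the 9 was called higher with limma or edgeR, and none had an unadjusted p under 0.05 in that direction. DESeq2 called 1 of 10 higher, the RIN4 family gene model already given above, with 5 ‘Wakefield’ and 50 ‘Heritage’ reads. Around WRKY57, limma called 0 of 7 in either direction, 1 higher and 1 lower had an unadjusted p under 0.05, edgeR called 1 higher, and DESeq2 called 1 higher and 1 lower of 10.

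**Figure D5:**
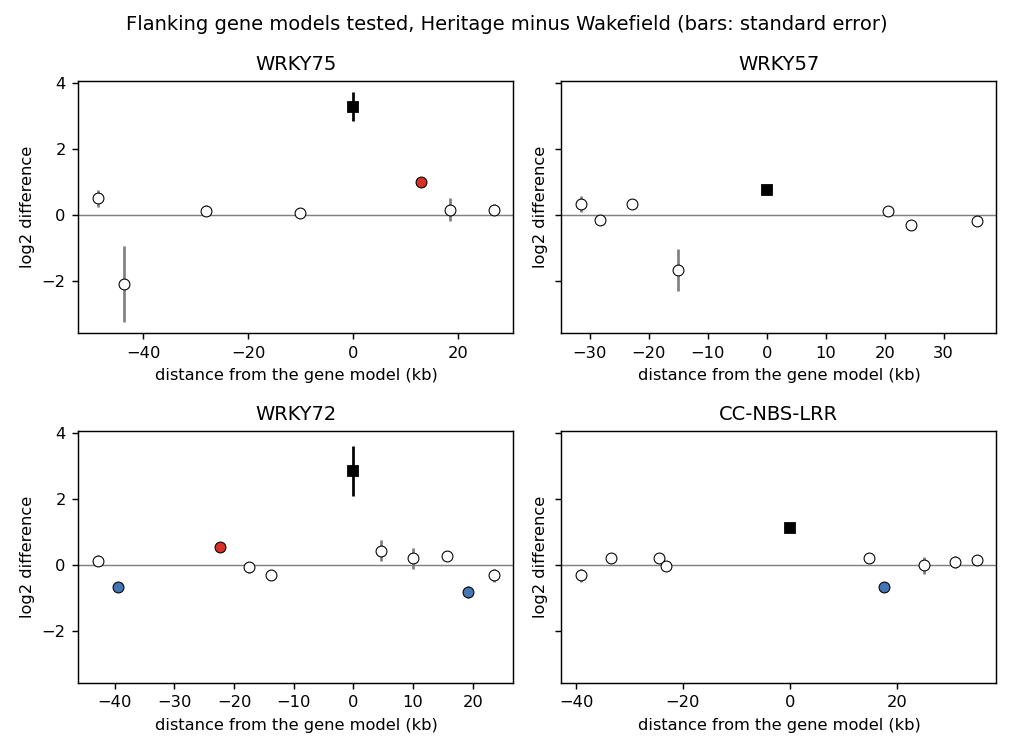
Log2 difference, ‘Heritage’ minus ‘Wakefield’ (vertical axis, bars are standard errors), of the tested gene models on each side of the 4 genes against distance in kb (horizontal axis). Black squares are the 4 genes, red points were called higher, blue points lower and open points not called; 2 red and 3 blue points appear among 33, and WRKY57 has none.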

How the data were processed

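Axillary bud RNA of ‘Heritage’ and ‘Wakefield’ was sequenced by the authors from stranded TruSeq libraries (paired-end, NovaSeq), 3 per cultivar, and samples were grouped by the cultivar in the labels. Per the paper's methods and the submitters' processing notes, Trimmomatic trimmed the reads, SortMeRNA removed ribosomal RNA, STAR placed the reads on R. occidentalis gene models and DESeq2 compared the cultivars. Tool versions, the read counter and its use of strand were not given in the sources used here. Signal values as deposited are read counts of each gene model after the authors' division by the library's size factor. The authors' own log2 fold change, standard error, Wald statistic and p-values stand beside them and were not used.

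In every library 100% of values were whole multiples of 1 step (tolerance 0.001), which gave back the reads. Because the values are normalized, limma 3.58.1 (R 4.3.3) was fitted on log2(value + 1) over the 17898 gene models with at least 10 in at least 3 libraries. Fold changes are on that scale, which understates changes of low genes. Calls were made at an adjusted p under 0.05 (Benjamini-Hochberg, 2-sided). Scripts were tested on simulated data in which only gene models averaging above 50 were changed. Limma recovered 23 of 100 2-fold changes and 89 of 100 4-fold changes. There edgeR recovered 70 and 95, and DESeq2 82 and 95. False calls were 6 with limma, 15 with edgeR and 52 with DESeq2. Far fewer gene models were changed there than were called in the data, so these shares do not measure recovery in the data. A gene that limma did not call can still differ by 2-fold. Alternatives were edgeR 4.0.16 (TMM) and DESeq2 1.42.0 on the recovered reads, pseudocounts of 0.1 and 10, no filter, a filter of at least 50, and each library left out.

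The 4 genes and the lists were chosen with earlier results of these data known. Named genes were the 4, the other WRKY genes, FLS2, BAK1, RIN4 family, PBS1 and NPR3, up to 4 others per list with the smallest adjusted p among those called, called flanking gene models, and the 3 nearest profiles of each gene. The second NBS-LRR gene, and JAZ3, were added after their values were seen. No sequence was used here, and annotation was limited to the positions, orthologues and descriptions that the study lists.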

Additional observations from a re-analysis of the deposited data

How the results depend on the processing

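The direction of all 4 genes held under every alternative that gave a value, and a filter of at least 50 left WRKY72 out. The cultivars did not overlap in any of the 4, which were chosen for their difference, so this is no separate result. Without overlap, leaving out a library or changing the pseudocount could not reverse a direction. The log2 difference of WRKY72 was 1.40 and that of the CC-NBS-LRR gene 0.96 with a pseudocount of 10, which shrinks low values by construction. Leaving out 1 library gave 2.96 to 3.70 for WRKY75, 0.72 to 0.78 for WRKY57, 2.35 to 3.52 for WRKY72 and 1.02 to 1.19 for the CC-NBS-LRR gene. Calls over all gene models ranged from 1087 to 2764 higher and 1709 to 2768 lower, lowest without library 63. The other WRKY genes gave 0 to 2 higher and 0 to 1 lower, the 10 lists 7 to 13 higher and 4 to 8 lower, and the flanking gene models 1 to 2 higher and 1 to 3 lower. DESeq2 called 4 flanking gene models higher and 6 lower of 40, and limma with no filter on low values called 4 and 5. Over all gene models DESeq2 called 3377 higher and 3705 lower of 19939, and limma with no filter 2857 and 3170 of 19951. WRKY35 reversed with edgeR (-0.016) and DESeq2 (-0.017), and ran from -0.39 to 0.46 when 1 library was left out. NPR3 ran from -0.039 to 0.076 and BAK1 from -0.051 to 0.18. The causes were not tested. Among the named genes tested other than the 4 and their nearest profiles, 372 of the recomputed values kept direction and side of the threshold, 74 lost their call, 8 gained one (5 of them JAZ3) and 7 reversed. Depth limits WRKY72 and the RIN4 family gene model, with 10 and 5 ‘Wakefield’ reads. Replicates are described as biological, but the plants behind each are not given, so p-values measure the spread between these libraries. No paired analysis was possible because the library numbers are not shared between the cultivars.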
